A study of Mus musculus with 16 samples.

Results

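The Ugt2 and Ugt3 genes of the mouse encode membrane enzymes of the UDP-glycosyltransferase superfamily, and 10 of them were listed by symbol for this report. They were Ugt2a3, Ugt2b1, Ugt2b5, Ugt2b34, Ugt2b35, Ugt2b36, Ugt2b37, Ugt2b38, Ugt3a1 and Ugt3a2. The rule used symbols only, although the list was drawn up with earlier results of these data known. Of the 10, 9 were found among the 15544 genes of the liver expression table, and the same 9 were among the 12704 genes that passed the filter on low values (a value of at least 1 in at least 4 libraries). Levels of Ugt2b38 were not analysed here.

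Ugt2 enzymes sit in the endoplasmic reticulum and join glucuronic acid, carried by UDP-glucuronic acid, to lipophilic molecules such as steroids, bile acids and drugs. The glucuronides are water-soluble and leave the hepatocyte through export pumps into bile or blood. Ugt3 enzymes are related in sequence but are best known for using other UDP-sugars, with UDP-N-acetylglucosamine used by human UGT3A1.

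Bulk RNA-seq was performed on 16 liver samples from female mice aged 27 weeks, with 4 libraries in each of 4 groups. Controls were Esr1fl/fl mice, in which both alleles of Esr1, the gene for oestrogen receptor alpha, are floxed. Mutants were Esr1Nkx2-1Cre mice, which carry the same floxed alleles and a Cre recombinase driven by Nkx2-1, a gene active in the developing hypothalamus and some other tissues, so all 4 groups shared the floxed alleles and the liver's own Esr1 was not the target. Control_Chow and Mutant_Chow mice ate standard chow, and Control_HFD and Mutant_HFD mice ate a high-fat diet (HFD) over 17 weeks. Replicates are separate samples by their labels, numbered here in sample order only. Values are TPM (transcript abundance corrected for transcript length and scaled to a fixed library total) that the authors had adjusted for library size, with no read counts beside them, so depth is unknown and no counting error can be given.

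The numbers in the library titles form 4 runs, 2 on each diet, and the labels do not say what the runs stand for. On HFD, the lower-numbered run holds Control_HFD replicates 1 to 3 and Mutant_HFD replicate 1, and the higher-numbered run holds Control_HFD replicate 4 and Mutant_HFD replicates 2 to 4. Genotype and run therefore overlapped heavily on HFD, and diet and run cannot be told apart. Deposited totals ran from 905897 to 1119703 per library. The first principal component (27.55% of the variance) held the lower-numbered HFD run at 0.34 to 0.39, with every other library at or under 0.12. At its opposite end Mutant_Chow replicate 2 stood alone at -0.53, the next library being at -0.27. Hepatocyte markers were high throughout, with Alb (albumin) between 36044 and 79775. Lrp2, the only 1 of 5 listed kidney markers with a row, stayed at or under 0.379. Fabp2, the only 1 of 5 listed intestinal markers with a row, was between 36.5 and 112 on chow and between 116 and 170 on HFD. Fabp2 alone cannot show whether intestinal tissue was present, and its part in the diet comparisons below was not tested.

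By genome build GRCm38, the 8 listed Ugt2 genes lie together on chromosome 5, from Ugt2b34 (chr5:86889767-86906937) to Ugt2b38 (chr5:87409942-87424203). All but Ugt2b35 are on the minus strand, and each has 6 exons in its longest coding transcript. Ugt3a1 (chr15:9276888-9315032) and Ugt3a2 (chr15:9335550-9370955) are neighbours on the plus strand of chromosome 15, with 7 exons each. The coding sequences of Ugt2b5 and Ugt2b37 were 94.66% identical, those of Ugt2b5 and Ugt2b38 97.05%, those of Ugt2b37 and Ugt2b38 94.1%, and those of Ugt3a1 and Ugt3a2 93.26%. This closeness bears on the measurement, because reads from a shared stretch can be assigned to the wrong copy. Of the 31-base words of its GENCODE transcripts, Ugt2b5 (chr5:87124960-87140318) shared 56.4% with another gene, and Ugt2b37 (chr5:87240493-87254804) shared 34.39%. The shares were 18.91% for Ugt3a1, 15.17% for Ugt3a2, 11.99% for Ugt2b36 and 8.05% for Ugt2a3, and they were 4.4% or less for Ugt2b35, Ugt2b34 and Ugt2b1. Levels of Ugt2b5, Ugt2b37, Ugt3a1 and Ugt3a2 are accordingly uncertain to the extent that reads were split between copies.

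Ugt2b37 and Ugt2b5 are the closest measured pair, and their levels behaved differently in the results below, so the 250 bases before the RefSeq start of each are printed 5′ to 3′ on the minus strand (GRCm38.p6). Ugt2b37 covers chr5:87254789-87255038 and Ugt2b5 covers chr5:87140341-87140590. Capitals mark the 52 bases in each that had no identical partner in the other when the promoters were aligned, including the overhang at either end.
Ugt2b37: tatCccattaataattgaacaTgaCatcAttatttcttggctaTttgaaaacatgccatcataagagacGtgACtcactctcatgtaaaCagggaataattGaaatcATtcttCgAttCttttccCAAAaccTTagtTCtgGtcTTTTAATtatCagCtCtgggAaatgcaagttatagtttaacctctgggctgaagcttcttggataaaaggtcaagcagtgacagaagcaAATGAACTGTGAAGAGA
Ugt2b5: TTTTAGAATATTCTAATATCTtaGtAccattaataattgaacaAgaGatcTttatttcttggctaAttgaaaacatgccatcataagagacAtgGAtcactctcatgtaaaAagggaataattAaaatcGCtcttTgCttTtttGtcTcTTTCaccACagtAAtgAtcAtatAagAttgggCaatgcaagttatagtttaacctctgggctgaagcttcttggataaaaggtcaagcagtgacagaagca
Over the 226 aligned bases, 198 (87.61%) were identical. The promoters of Ugt2b37 and Ugt2b38 were 94.92% identical over 236 aligned bases. Promoters of 9 of the 10 genes were in the RefSeq table, Ugt3a2 being the exception, and 4 motifs were searched in them on both strands. The FOXA motif TGTTTAC was found, as its reverse complement GTAAACA, in Ugt2b35, Ugt2b37 and Ugt2b38, with the match in Ugt2b37 and Ugt2b38 beginning 166 and 152 bases before the start, and 3.166% of 32851 promoters of the same length held it. In Ugt2b37 the match spans 1 of the capitals above, and Ugt2b5 had no match. The STAT motif TTCNNNGAA (7.02% of all promoters), the HNF1 motif GTTAATNAT (0.7367%) and the HNF4 motif CAAAGTCCA (0.3835%) had no match in the 9 promoters. No other motif was searched, and as FOXA alone had matches, none overlapped another. Distances are from RefSeq starts, which match the GENCODE start for Ugt2b38 but not for Ugt2b37, so 166 and 152 are not directly comparable. The last bases of the Ugt2b37 stretch lie within the GENCODE gene, and the searched Ugt3a1 stretch (chr15:9279579-9279828) lies wholly inside it.

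Compared per transcript length, as TPM allows, 8 genes were abundant liver transcripts and Ugt2b37 was not. Means over the 16 libraries were 401.7 for Ugt2b36, 264 for Ugt3a2, 212 for Ugt2b5, 192 for Ugt2b34, 175 for Ugt2a3, 124 for Ugt2b1, 96.7 for Ugt3a1, 41.3 for Ugt2b35 and 2.93 for Ugt2b37. Ugt2b36 exceeded 97.42% of the tested genes and Ugt2b37 exceeded 20.37%. In this order, Ugt2b36 lay above Ugt3a2, Ugt3a2 above Ugt2b5, Ugt3a1 above Ugt2b35 and Ugt2b35 above Ugt2b37 in 16 of 16 libraries. The middle of the order was less separate: Ugt2b5 exceeded Ugt2b34 in 10 libraries, Ugt2b34 exceeded Ugt2a3 in 12, Ugt2b1 exceeded Ugt3a1 in 13 and Ugt2a3 exceeded Ugt2b1 in 15. Ugt2b36 made up 26.7% of the summed level of the 9 genes on average (23.6% to 31.5% across libraries) and Ugt3a2 made up 17.6%.

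The summed level of the 9 genes was 1520 ± 117 in Control_Chow, 1425 ± 189.6 in Mutant_Chow, 1528 ± 353 in Control_HFD and 1563 ± 136 in Mutant_HFD (SD, n = 4 each). The wide spread in Control_HFD came from replicate 4, whose sum was 2035 against 1213 to 1440 in replicates 1 to 3. That library held the highest of the 16 values for 8 of the 8 abundant genes. The share of all tested genes that were highest in it was not computed, so this count cannot be read as particular to these genes. In a bulk sample, a change in the proportion of hepatocytes and a change in RNA per hepatocyte cannot be told apart.

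**Figure D1:**
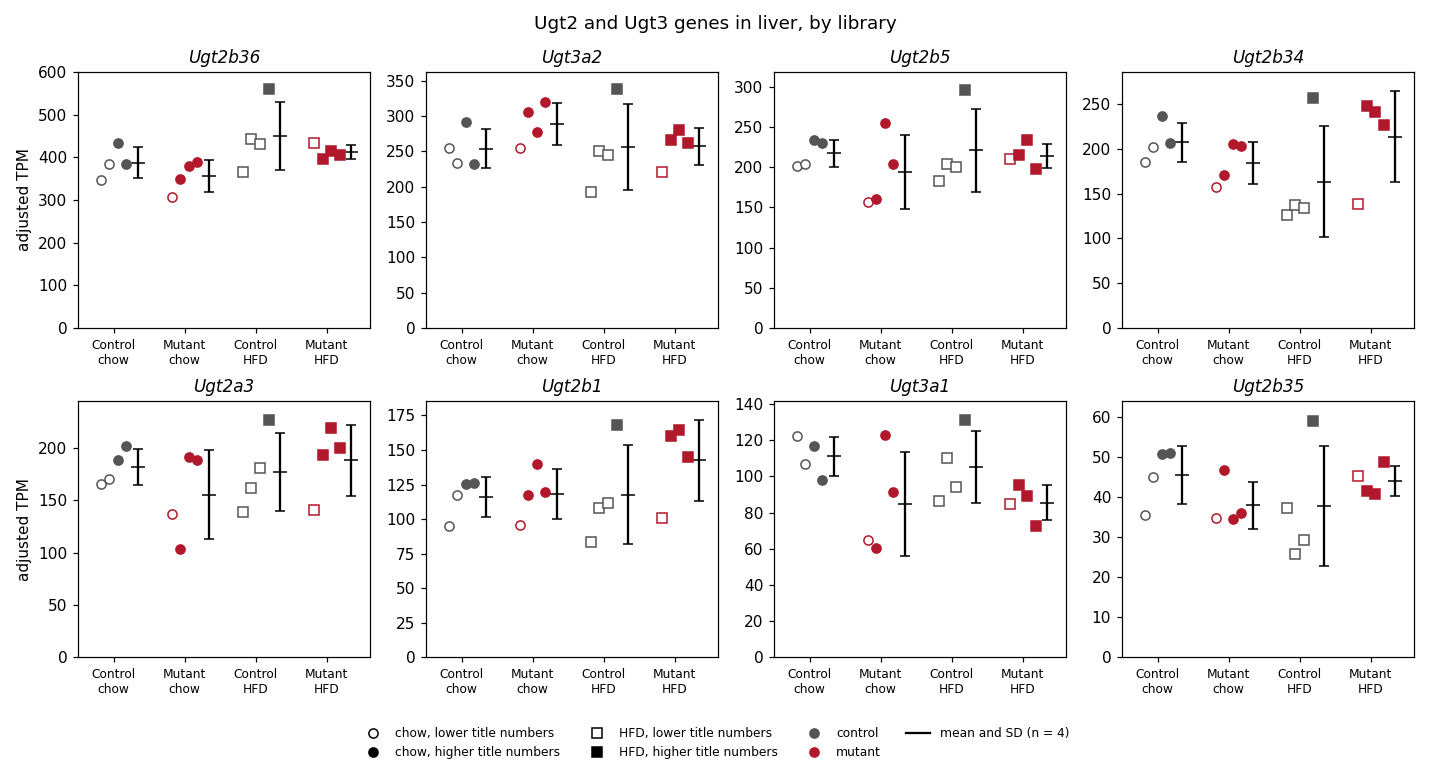
Adjusted TPM (linear axes from 0) of the 8 abundant genes in each library, by group; circles are chow and squares HFD, open symbols are the lower-numbered and filled symbols the higher-numbered title run, and bars give the mean and SD of 4 libraries. The filled grey square, Control_HFD replicate 4, is the highest of 16 values in each of the 8 panels.

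The first comparison asked whether deleting oestrogen receptor alpha in Nkx2-1 cells was accompanied by a difference in these liver transcripts. On chow, the members with the largest log2 differences between mutants and controls were Ugt2b37 (1.68) and Ugt3a1 (-0.44), and the remaining 7 genes differed by no more than 0.26 on the log2 scale in either direction. No gene among the 9 passed an adjusted p of 0.05 on either diet (limma on log2 of value plus 1, Benjamini-Hochberg adjustment over 12704 genes). Across all tested genes, 0.0236% passed on chow and 0.0157% on HFD. At an unadjusted p under 0.05, 2 members on chow (Ugt2b37 higher, Ugt3a1 lower) and 1 on HFD (Ugt2b37) were counted, against 6.08% and 8.60% of all tested genes. The members' median log2 difference was -0.17 on chow and 0.09 on HFD, beside 0.02 for all tested genes on either diet.

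Ugt2b37, a Ugt2b enzyme gene of the same cluster, measured 0.429, 0.858, 1.02 and 0.964 in Control_Chow replicates 1 to 4. In Mutant_Chow it measured 3.63, 5.16, 5.32 and 5.14. The chow groups did not overlap, the lowest mutant being above the highest control, and Ugt2b37 was the 1 member for which this was so (1.95% of all tested genes lay apart in that direction and 1.09% in the opposite one). In Control_HFD it measured 0.106, 0.609, 0.155 and 0.42, and in Mutant_HFD 0.26, 10.1, 6.36 and 6.36. Mutant_HFD replicate 1 lay inside the range of the controls, whereas the other 3 mutants on HFD were the highest of all 16 libraries. In all, 7 of 8 mutants exceeded each of the 8 controls, a count for which the share of all tested genes was not computed. The exception stands alone as a mutant in the lower-numbered HFD run.

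Means of Ugt2b37 were 4.81 ± 0.791 against 0.816 ± 0.266 on chow, a ratio of 5.89, and 5.77 ± 4.08 against 0.322 ± 0.236 on HFD, a ratio of 17.9 (SD, n = 4 each). On the log2 scale of value plus 1, which understates changes at such low levels, the difference was 1.68 on chow (SE 0.465, adjusted p = 0.59) and 2.01 on HFD (SE 0.465, adjusted p = 0.472). Averaged over diets it was 1.84 (SE 0.329, 95% interval 1.14 to 2.54, adjusted p = 0.0527), which misses the threshold, and 0.0630% of all tested genes passed it in that comparison. An exact two-sided permutation test of genotype within diets gave p = 0.00122 for Ugt2b37, and one within title runs gave p = 0.00417, each unadjusted for the 9 members tested. In a fit of the chow groups alone, the chow difference passed (adjusted p = 0.0149 by limma), and 6 of 12704 genes passed there in place of 3. Leaving out each library in turn gave 1.66 to 2.19 averaged over diets and 1.64 to 2.69 on HFD. The upper ends, without Mutant_HFD replicate 1, had adjusted p = 5.27e-07 and 5.71e-06 by limma. In those fits 119 and 141 genes passed in place of 8 and 2. That library is the mutant at control level, so its removal favours a difference and these p-values are not independent support. Within runs, mutants minus controls gave 1.51 in the lower-numbered chow run (1 mutant, 2 controls) and 1.64 in the higher-numbered one (3 mutants, 2 controls). On HFD the difference was 2.57 in the higher-numbered run (3 mutants, 1 control) and -0.01 in the lower-numbered run (1 mutant, 3 controls). With title run as a term, the HFD difference of Ugt2b37 was 1.28 (adjusted p = 1 by limma) and the averaged difference 1.44 (adjusted p = 0.158). Ugt2b37 had a value of at least 1 in 8 libraries, 7 of them mutant, so it passed the low-value filter through the group in which it was high. Whether the difference depended on diet was tested by the interaction, which was 0.33 for Ugt2b37 (95% interval -1.07 to 1.72, adjusted p = 0.938).

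**Figure D2:**
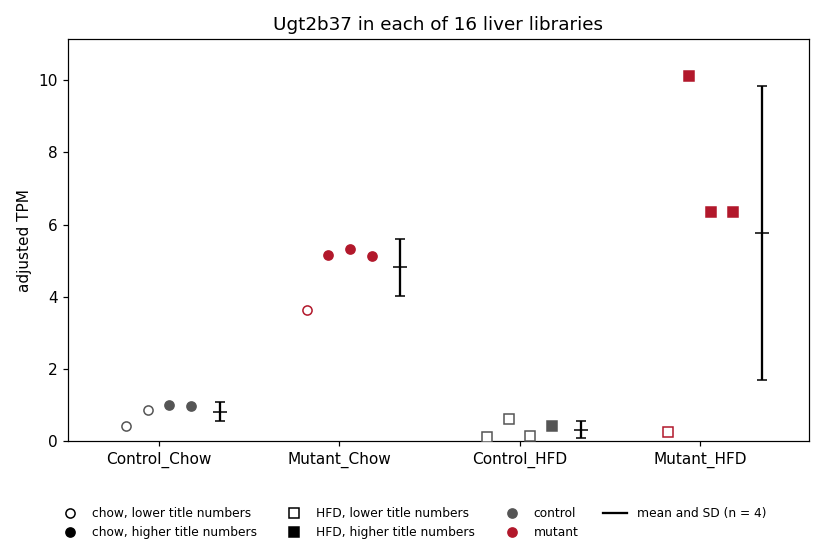
Adjusted TPM of Ugt2b37 in each of the 16 libraries, by group, with the mean and SD of 4; open symbols are lower-numbered and filled symbols higher-numbered title runs. The 8 controls lie at or under 1.02 and 7 of 8 mutants at or above 3.63, with Mutant_HFD replicate 1 at 0.26.

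Ugt2b5, which shares the most sequence with Ugt2b37, had overlapping genotype groups on both diets. Its level ranged from 202 to 233.4 in Control_Chow, from 157 to 255 in Mutant_Chow, from 182 to 296 in Control_HFD and from 198 to 234.4 in Mutant_HFD. The log2 difference between mutants and controls was -0.19 on chow (95% interval -0.54 to 0.16) and -0.02 on HFD (-0.37 to 0.33). Adding both genes gave 218 ± 16.8 and 199 ± 46.4 in the chow groups and 221 ± 51.2 and 220.2 ± 16.2 in the HFD groups, controls first (SD, n = 4). The sum followed Ugt2b5, because Ugt2b37 contributed at most 0.622% of the level of the 9 genes in any library. It therefore cannot show whether reads of Ugt2b5 were assigned to Ugt2b37. Ugt2b38, which shared 44.91% of the 31-base words of Ugt2b5, was not in the sum.

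The Ugt3 pair gave a smaller contrast. Ugt3a1 measured 122, 107, 117 and 98.2 in Control_Chow and 64.9, 60.6, 123 and 91.2 in Mutant_Chow. On HFD it measured 86.3, 109.9, 93.9 and 131 in controls and 84.9, 95.4, 89 and 72.6 in mutants. Mutants extended lower than controls, 4 of 8 lying under each of the 8 controls, but the groups overlapped on both diets. The share of all tested genes with such a count was not computed. The log2 difference averaged over diets was -0.36 (SE 0.136, 95% interval -0.65 to -0.07, adjusted p = 0.475). It was negative in each of the 4 title runs (-0.81, -0.28, -0.18 and -0.62, chow first and lower-numbered runs first). The same held for Ugt2a3 (-0.29, -0.33, -0.18 and -0.15). In every run but the higher-numbered chow run, 1 genotype had a single library. The exact permutation test within runs gave an unadjusted p = 0.0187 for Ugt3a1. Mutant_Chow replicate 2, the library at the end of the first component, gave the lowest Ugt3a1 value, and without it the difference was -0.30 on chow (adjusted p = 1 by limma) and -0.29 averaged (adjusted p = 0.721). Its neighbour Ugt3a2 measured 255, 233.995, 292 and 232.8 in Control_Chow and 254, 305, 277 and 319 in Mutant_Chow, with an averaged difference of 0.11 (95% interval -0.12 to 0.33).

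The other 6 genes showed no genotype difference past the threshold on either diet. Averaged over diets, at an unadjusted p under 0.05 the 9 members gave 1 higher (Ugt2b37) and 1 lower (Ugt3a1), against 8.98% of all tested genes. The 95% intervals for these 6 genes spanned -0.69 to 0.45 on chow and -0.38 to 0.88 on HFD. The exact permutation test within title runs gave an unadjusted p = 0.0292 for Ugt2b36 (-0.18), 0.0521 for Ugt2b34 (-0.14), 0.0542 for Ugt2a3 (-0.25) and 0.0604 for Ugt2b5 (-0.22), and 0.344 and 0.502 for Ugt2b35 (-0.15) and Ugt2b1 (-0.05). Within diets, the same test gave an unadjusted p = 0.178 for Ugt2b36 (-0.12), 0.487 for Ugt2b34 (0.12) and 0.589 for Ugt2a3 (-0.09). It gave 0.384 for Ugt2b5 (-0.10), 0.935 for Ugt2b35 (0.01) and 0.306 for Ugt2b1 (0.16). Ugt2a3 was also lowest in Mutant_Chow replicate 2 (103), and its chow difference was -0.26 with that library and -0.09 without it. On HFD, Ugt2b34 had an interval reaching the highest value, from -0.05 to 0.88, and its values there lay apart by title run, as described further on. On HFD no member had groups apart in either direction (1.39% of all tested genes lay apart upwards and 1.31% downwards).

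**Figure D3:**
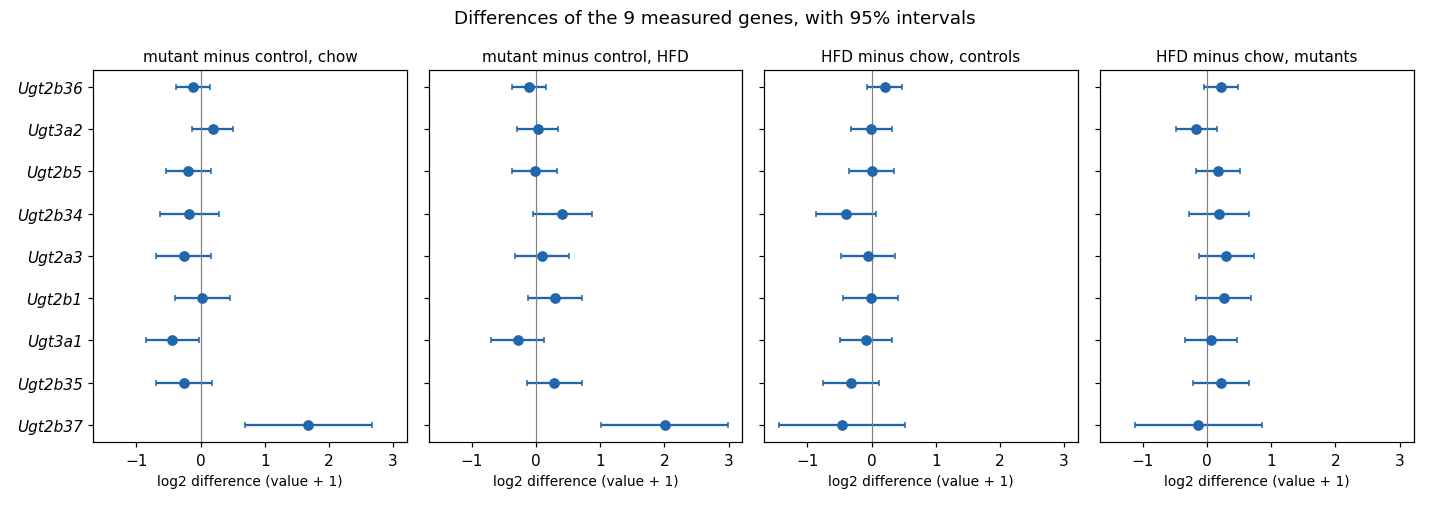
Log2 differences (value plus 1) with 95% intervals from limma for the 9 measured genes, in the genotype comparison on each diet and the diet comparison in each genotype. Ugt2b37 lies at 1.68 and 2.01 in the genotype panels, and for the 8 abundant genes each interval in the 4 panels but 1 (Ugt3a1 on chow) includes 0.

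The diet comparison asked how these transcripts differed between HFD and chow with and without the mutation. No member passed in controls or in mutants, and 0% of all tested genes passed in either. No member had an unadjusted p under 0.05 in controls, against 12.9% of tested genes, or in mutants, against 6.86%. The members' median log2 difference was -0.06 in controls and 0.18 in mutants, beside -0.01 for all tested genes in each. In the interaction of genotype and diet 0 members and 0% of genes passed, with 0 members and 4.21% of genes at an unadjusted p under 0.05.

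Ugt2b36, the most abundant of the 9 transcripts, was the member nearest to a diet difference averaged over genotypes. It measured 346, 384, 435 and 385 in Control_Chow and 308, 349, 379 and 390.5 in Mutant_Chow. On HFD it measured 366, 443, 431 and 559.6 in controls and 433, 397, 414 and 405 in mutants. The mutant groups did not overlap, HFD being higher, and Ugt2b36 was the 1 member for which this was so (1.67% of tested genes lay apart upwards and 1.86% downwards in mutants). The control groups overlapped for each of the 9 members, against 3.38% and 2.98% of tested genes apart upwards and downwards. Averaged over genotypes, the difference of Ugt2b36 was 0.21 (SE 0.0898, 95% interval 0.02 to 0.40, unadjusted p = 0.034, adjusted p = 0.314 by limma). In that averaged comparison 0.134% of tested genes passed, 14.1% had an unadjusted p under 0.05, and no other member did. In controls alone, Ugt2b34 had a smaller unadjusted p by limma than Ugt2b36 (0.0864 against 0.129).

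Ugt2b34 and Ugt2b35 depended on 1 library in the diet comparison. In controls, Ugt2b34 differed by -0.40 between HFD and chow (95% interval -0.87 to 0.06, adjusted p = 0.454 by limma) and Ugt2b35 by -0.32 (-0.75 to 0.11, adjusted p = 0.512). Without Control_HFD replicate 4, the only control of the higher-numbered run, the differences were -0.64 (adjusted p = 0.0424) and -0.55 (adjusted p = 0.0443), and 925 genes passed in place of 0.

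Within HFD, several of these genes differed between the title runs. With genotype in the fit, 4 of the 9 members were higher in the higher-numbered run (Ugt2b34, Ugt2b1, Ugt2b37 and Ugt3a2) and none was lower, while 25.2% of all tested genes passed in either direction. The median log2 difference of the members was 0.44, against 0.04 for all tested genes. At an unadjusted p under 0.05 there were 6 members, all higher, against 37.8% of tested genes. The comparison was added after the data had been seen, and each run holds a single library of 1 genotype.

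Ugt2b34 measured 126, 137, 134 and 139 in the lower-numbered HFD run, the last being the mutant. In the higher-numbered run it measured 257 in the control and 248, 241 and 226 in the mutants. The runs lay apart with no library between them, and within each run the mutants and controls differed by 0.07 and -0.11 on the log2 scale. The difference between runs was 0.86 (SE 0.0967, 95% interval 0.66 to 1.07, adjusted p = 0.000167 by limma). Chow values of Ugt2b34 ran from 158 to 236, above the lower-numbered run and overlapping the higher-numbered one, and the difference from chow was -0.54 for the lower-numbered run and 0.32 for the higher-numbered run. With title run as a term, the genotype difference of Ugt2b34 on HFD was -0.02 in place of 0.41.

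Ugt2b1, a neighbour of Ugt2b34 in the cluster, showed a like split. It measured 83.6, 107.8, 112 and 101 in the lower-numbered HFD run, the mutant last, and 168, 160.2, 165 and 145 in the higher-numbered run, the control first. The difference was 0.69 (SE 0.122, adjusted p = 0.00185 by limma), and it was 0.63 (adjusted p = 0.0582) without Control_HFD replicate 4. Its difference from chow was -0.21 for the lower-numbered and 0.45 for the higher-numbered run.

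Ugt3a2 differed by 0.43 between the runs (adjusted p = 0.0235 by limma), from 192 to 251 in the lower-numbered and from 261 to 338.03 in the higher-numbered run. Without Control_HFD replicate 4 this fell to 0.29 (adjusted p = 0.342). Ugt2a3, whose human counterpart conjugates bile acids, ranged from 138 to 180 and from 193 to 226, a difference of 0.52 that missed the threshold (adjusted p = 0.0575). Ugt2b37 differed by 1.45 (adjusted p = 0.02), and without Mutant_HFD replicate 1 the difference was 0.16 (adjusted p = 0.755). Ugt2b35 (0.44) and Ugt2b5 (0.31) did not pass, nor did Ugt3a1 (0.22) or Ugt2b36 (0.17). The runs did not overlap for 4 members (Ugt2b34, Ugt2b1, Ugt2a3 and Ugt3a2), and 19.6% of all tested genes lay apart in the same direction.

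**Figure D4:**
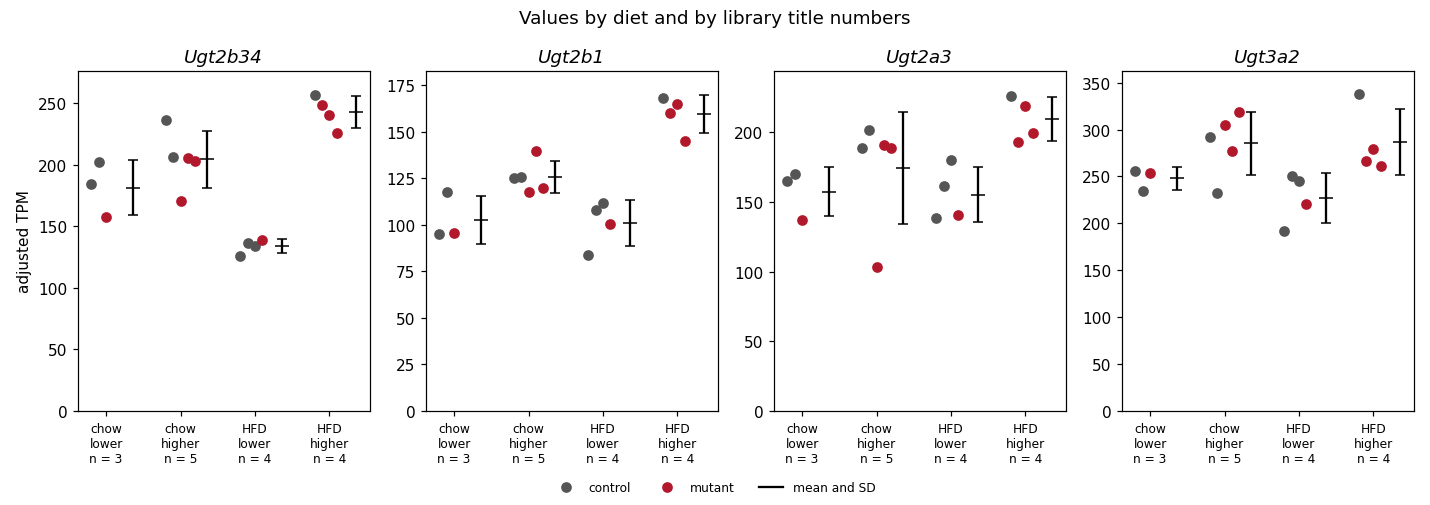
Adjusted TPM of Ugt2b34, Ugt2b1, Ugt2a3 and Ugt3a2 by diet and title run (lower- or higher-numbered), grey for controls and red for mutants, with mean and SD. On HFD the runs do not overlap in any of the 4 panels, and for Ugt2b34 they lie at 126 to 139 and at 226 to 257.

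Other features of the libraries moved with the HFD runs. The summed hepatocyte markers (6 of 6 with a row) lay between 60054 and 75539 in the lower-numbered run and between 75763 and 99438 in the higher-numbered run. The 5 red cell markers summed to 4830 to 6922 and 1695 to 4547, and the 5 leukocyte markers to 144 to 201 and 98.2 to 129, in the same order. All 3 sums lay apart between the runs, and their part in the differences was not tested. The hepatocyte and leukocyte sums each rest largely on a single gene. By median over the 16 libraries, Alb stood at 57430 with Apoa1 next at 7650. Clec4f stood at 115 with Ptprc next at 5.62. On chow, no member differed between the runs past the threshold and 0% of tested genes did. At an unadjusted p under 0.05, 2 members were higher in the higher-numbered chow run (Ugt2b1 by 0.31 and Ugt2b34 by 0.23), against 11.6% of tested genes.

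Members varied together to different degrees over the 16 libraries. The highest Pearson coefficients among 36 pairs were 0.84 for Ugt2b1 and Ugt2b34, 0.80 for Ugt2a3 and Ugt2b5 and 0.79 for Ugt2b5 and Ugt3a1. The most similar pairs by sequence were not among them, with -0.11 for Ugt2b5 and Ugt2b37 and 0.14 for Ugt3a1 and Ugt3a2. These coefficients describe libraries that share diets, title runs and scaling, and they carry no test.

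**Figure D5:**
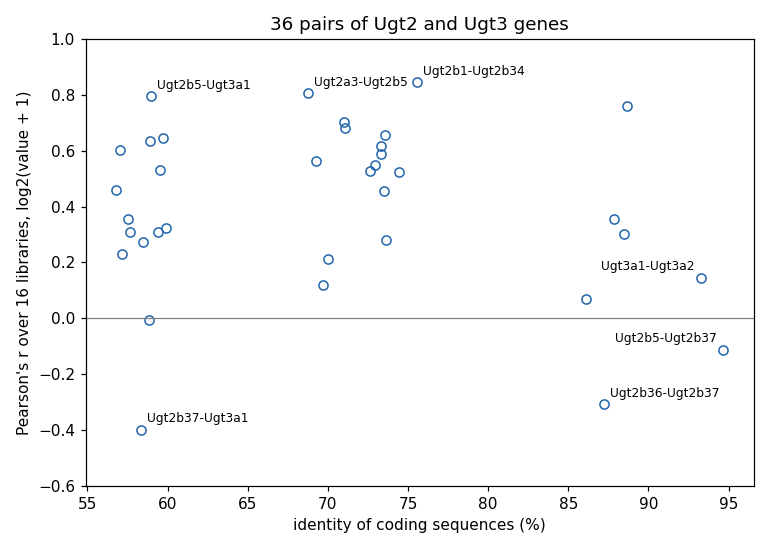
Each of 36 pairs of measured genes, by the identity of their coding sequences (percent) and the Pearson coefficient of their log2 values over 16 libraries. The pairs at 93.26% and 94.66% identity lie at 0.14 and -0.11.

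Among genes outside the list, the one whose pattern was most like that of each member, by Pearson coefficient over the 16 libraries, was Abcc2 for Ugt2b5 (0.95), Wwp1 for Ugt2b34 (0.96) and Gm7086 for Ugt2b37 (0.94). Abcc2 encodes the canalicular pump that exports conjugates into bile. The nearest genes were Nmrk1 for Ugt2a3 (0.94), Scaf11 for Ugt2b1 (0.92), Tsn for Ugt3a2 (0.91), Nudt19 for Ugt2b36 (0.90), Sult2a8 for Ugt3a1 (0.90) and Csnk2a2 for Ugt2b35 (0.86).

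The rest of the pathway was followed in 5 lists: other UDP-glycosyltransferases (9 of 12 tested), supply of UDP-glucuronic acid (6 of 6), removal and export of glucuronides (5 of 5), the route from glucuronate to vitamin C (3 of 3) and receptors and factors known to act on Ugt genes (16 of 16). No gene of any list passed in the 4 group comparisons, the interaction or the averaged comparisons. Across genotypes averaged over diets, the numbers at an unadjusted p under 0.05 were 4 higher and 1 lower among the other UDP-glycosyltransferases, 0 among the supply genes, 2 higher among removal and export, 1 higher on the vitamin C route and 3 higher and 1 lower among the receptors and factors. That is 12 of 39 list genes (30.8%), against 8.98% of all tested genes in the same comparison, and none of the 12 passed after adjustment. The lists were chosen with earlier results of these data known, so these shares are not an independent comparison. Some of the 12 are Ugt1a genes, which share exons as described below and are not separate measurements.

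Between the HFD runs, 7 of the 39 list genes tested passed (17.9%), all of them higher in the higher-numbered run, a share under the 25.2% of all tested genes. Among the other UDP-glycosyltransferases, 3 did so: Ugt1a1, the bilirubin-conjugating enzyme, by 0.57 (adjusted p = 0.0115 by limma), Ugt1a6a by 0.50 (adjusted p = 0.0353) and Ugt1a5 by 2.18 (adjusted p = 0.0303). Genes of the Ugt1a locus share their last exons, so reads from that part cannot be assigned to 1 of them by sequence. Ugt1a1 measured 303 to 416 in the lower-numbered run and 477 to 538 in the higher-numbered run.

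In the supply list, 1 of 6 genes passed, Pgm2, a phosphoglucomutase, by 0.38 (adjusted p = 0.0362 by limma). In the export list, 1 of 5 passed, Abcg2, an efflux transporter, by 0.44 (adjusted p = 0.00228), and no gene of the vitamin C route did. Of the 16 receptors and factors, 2 passed, Ahr, the aryl hydrocarbon receptor, by 0.89 (adjusted p = 0.00938) and Ppara, a fatty acid receptor of the hepatocyte, by 1.11 (adjusted p = 0.00451). List medians were 0.08, 0.10, 0.26, 0.29 and 0.12 in the order given above, beside 0.04 for all tested genes.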

How the data were processed

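Total RNA from liver was sequenced, and the authors quantified transcripts with kallisto and sleuth per the labels, which also name mm10. Tool versions and the annotation are not given in the sources used here. The deposited values are a signal per gene: TPM adjusted by the authors with a size factor per library, with no counts, and per-read steps could not be recovered because TPM keeps no depth.

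Values were taken as deposited, 1 was added and log2 was taken. Genes at 1 or more in at least 4 libraries were tested in limma 3.58.1 (R 4.3.3) in 1 fit of 4 group means with an empirical Bayes trend, Benjamini-Hochberg adjustment and a threshold of 0.05. The fit was tested on simulated data with independent noise and no title-run effect. That test therefore does not cover the overlap of genotype and run on HFD. Exact two-sided permutation tests used Python 3.11.15. p-values measure the spread between 4 samples a group, which may be partly technical where nothing says that samples are separate animals. The 10 genes were taken by exact symbol whatever their values. From the other lists, counts and each gene past the threshold are named, and for each member the 1 gene outside the list with the highest Pearson coefficient. The members and lists were chosen with earlier results of these data known. Title runs were read from the numbers in the sample titles. Alternatives were another scaling, no filter, a minimum of 5, a pseudocount of 0.1, only the groups compared, library weights, title run as a term and leaving out each library. Coordinates, coding sequences and 31-base words came from GENCODE M21 (GRCm38) and promoters from RefSeq (GRCm38.p6), which held 9 of the 10 genes. The mapping the authors used may differ from this annotation.

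Marker lists were hepatocyte, kidney, intestine, gallbladder and bile duct, pancreas, adipose, red cells and leukocytes. Sums over genes with a row were 1.90 to 4.67 for gallbladder and bile duct (4 of 5), 0.65 to 2.24 for pancreas (1 of 5) and 8.99 to 23.4 for adipose (3 of 5).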

Additional observations from a re-analysis of the deposited data

Results flagged for a closer look

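In 36 sets of 4 libraries (9 genes in 4 groups), the highest or lowest library was compared with the gap to its nearest neighbour by Dixon's criterion, which chance meets in about 1 set of 20. It was met 3 times. Ugt2b34 in Control_HFD replicate 4 measured 256.6 against 126 to 137 in replicates 1 to 3. That library is the only control of the higher-numbered HFD run, and it also held the highest value of the 16 for each of the 8 abundant genes. The share of all tested genes that were highest in that library was not computed. Ugt2b35 in Mutant_Chow replicate 2 measured 46.6 against 34.4 to 36. Ugt2b37 in Mutant_Chow replicate 1 measured 3.63 against 5.14 to 5.32, and it still lay above the 8 controls.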

How the results depend on the processing

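No paired analysis was possible because the labels carry no replicate numbers. Of 1224 recomputed differences of the members, 1136 kept their direction and their side of the threshold. Counts of genes past the threshold moved by over 1.5 times as follows. With a minimum of 5 the count was 1 for genotype on chow (3 in the report) and 4 for genotype averaged (8). With only the groups compared it was 6 and 1 for genotype on chow and HFD (2 in the report for HFD), and 4 and 1 for diet in controls and mutants (0 each). With library weights it was 6 and 3926 for genotype on chow and HFD, 2264 and 9 for diet in controls and mutants, 1020 for genotype averaged and 680 for diet averaged (17). With title run as a term it was 1 for genotype on chow. Leaving out 1 library gave 1 to 14 for genotype on chow, 2 to 141 on HFD, 0 to 925 and 0 to 2 for diet in controls and mutants, 6 to 119 for genotype averaged, 0 to 398 for diet averaged, and 713 to 3013 between the HFD runs (3197).

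Ugt2b37 kept its direction in each genotype comparison under each alternative, from 1.57 to 2.46 on chow, 1.28 to 3.24 on HFD and 1.44 to 2.85 averaged, with adjusted p (limma) from 0.0149 to 1, 5.71e-06 to 1 and 5.27e-07 to 0.163. It passed on chow with only the chow groups (adjusted p = 0.0149), and with library weights on HFD (2.49, adjusted p = 0.000547) and averaged (2.09, adjusted p = 0.000191). Library weights also called Ugt2b34, Ugt2b1 and Ugt2b35 higher in mutants on HFD (0.74, 0.53 and 0.52) and Ugt2b34 and Ugt2b35 lower on HFD in controls (-0.60 and -0.59). With those weights 3926 of 12704 genes passed for genotype on HFD, 1020 for genotype averaged and 2264 for diet in controls, so such calls were common among all genes. These weights were lowest for Control_HFD replicate 4 and Mutant_HFD replicate 1 (0.228 and 0.329), each alone of its genotype in its run. Between HFD runs, Ugt2b35 was 0.93 (adjusted p = 0.0155) without Mutant_HFD replicate 1, and Ugt2a3 passed with library weights (adjusted p = 0.0309) and was at 0.05 with a minimum of 5.

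Signs reversed in 70 of these differences, and the cause was not tested. With size factors these were Ugt2b1 in genotype on chow (-0.0106), Ugt3a2 in genotype on HFD (-0.0050), Ugt2b1, Ugt2b5 and Ugt3a2 in diet in controls (0.0042, 0.0178 and 0.0112), Ugt2b35 in genotype averaged (-0.0184) and Ugt3a1 in diet averaged (0.0060). With library weights they were Ugt2b5 in genotype on HFD (0.0943), Ugt2b37 and Ugt3a1 in diet in mutants (0.3465 and -0.1088), Ugt2a3 and Ugt2b5 in genotype averaged (0.0903 and 0.0058) and Ugt2b5 in diet averaged (-0.0225). With title run as a term they were Ugt2b1 in genotype on chow (-0.0510), Ugt2a3, Ugt2b1, Ugt2b34 and Ugt3a2 in genotype on HFD (-0.1663, -0.0477, -0.0205 and -0.1873), Ugt2b36 and Ugt2b37 in the interaction (-0.0228 and -0.3140), and Ugt2b1, Ugt2b34, Ugt2b35 and Ugt3a2 in genotype averaged (-0.0493, -0.1258, -0.1275 and -0.0190).

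Leaving out 1 library reversed these at the ends of their ranges: Ugt2b1 in genotype on chow (-0.0667 to 0.1219); Ugt2a3, Ugt2b5, Ugt2b36 and Ugt3a2 in genotype on HFD (-0.0149 to 0.2270, -0.1021 to 0.1297, -0.2030 to 0.0001 and -0.1019 to 0.1692); Ugt2a3, Ugt2b1, Ugt2b5 and Ugt3a2 in diet in controls (-0.1835 to 0.0516, -0.1990 to 0.1338, -0.1495 to 0.0823 and -0.1494 to 0.1218); Ugt2b37 and Ugt3a1 in diet in mutants (-0.4975 to 0.5494 and -0.0793 to 0.2561); Ugt2b36 and Ugt2b37 in the interaction (-0.0828 to 0.1203 and -0.0354 to 1.0116); Ugt2a3 and Ugt2b35 in genotype averaged (-0.1427 to 0.0040 and -0.0628 to 0.1318); Ugt2b35, Ugt2b37 and Ugt3a1 in diet averaged (-0.1691 to 0.0255, -0.4798 to 0.0437 and -0.0846 to 0.0831); and Ugt2b35 and Ugt2b36 between HFD runs (-0.0540 to 0.9348 and -0.0961 to 0.4400). With no read depth, the precision of the low values of Ugt2b37 is unknown.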
